A study of Rattus norvegicus with 11 samples.

Results

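Mossy cells are the glutamatergic neurons of the hilus, the region enclosed by the granule cell layer of the dentate gyrus. They receive the axons of granule cells, the mossy fibers, and send their own axons along and across the hippocampus to the inner molecular layer, where they excite granule cells and local inhibitory neurons. They are known as one of the most injury-sensitive cell types of the hippocampus. The genes described here were 8 that mark mossy cells, mainly in work on mice: Drd2, Calcrl, Nmb, Grm8, Glp1r, Sv2c, Ociad2 and Cartpt. They were chosen by name, with earlier results of these data known. Of these 8, 7 had a probe set in the platform annotation, 1 each, and all 7 passed the filter on low values, out of 16572 genes tested. Ociad2 was not matched to a probe set and was not analysed here.

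The data came from the left dentate gyrus of 11 adult male Sprague-Dawley rats, dissected together with the hilus 90 days after surgery, with 1 Affymetrix array per rat. The 6 TBI rats had lateral fluid-percussion injury (FPI), a pulse of fluid pressure onto the exposed dura over the left parietal lobe, under pentobarbital and chloral hydrate anesthesia. The 5 controls had the same anesthesia and surgery, craniectomy included, without the impact, so an effect of the surgery itself is shared by both groups. Values are log2 signals, in which a difference of 1 is a doubling, and a signal at or below the background of 3.06 counted as not measurable.

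Prox1, the transcription factor that defines dentate granule cells, was well above background in both groups, at 9.31 ± 0.070 in TBI rats (SD, n = 6) and 9.27 ± 0.11 in control rats (SD, n = 5). Once group means were removed, 63.9% of the variance lay along 1 axis, on which control rat 2 and TBI rats 1 and 3 stood apart. Results are therefore also given for the 8 other rats. In tissue that mixes cell types, fewer cells of a type and less RNA per cell cannot be told apart, and no gene of the list is made by mossy cells alone.

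Among the genes with a promoter sequence in RefSeq (build GRCr8), 7 of the 8 listed, 2 short motifs were searched on both strands, from 250 bases before to 50 bases after the start of the gene. The first was the cAMP response element TGACGTCA, the site bound by CREB, and the second was GTGGGAA, the site bound by RBPJ, the DNA-binding partner of Notch, since NOTCH1 was the subject of the study. Each motif was present in 1 gene of the list, the first in Cartpt and the second in Grm8. Among all 33469 promoters of that length, 1.83% held the first and 6.29% the second. Both stretches are shown in the direction of the gene, with the motif in capitals. The first lies at chr2:32991359-32991388 and the second at chr4:57687609-57687638, both on the minus strand. A match describes the letters only, and binding was not measured.
Cartpt: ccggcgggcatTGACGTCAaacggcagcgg
Grm8: gccagctttacGTGGGAAtaaacttgaacg

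No mossy cell gene differed between TBI and control rats after adjustment over all probe sets. At an adjusted p under 0.05 in limma, 0 of the 7 genes passed, where 0.151% of the 17905 probe sets did. Without adjustment, Nmb and Grm8 were lower after TBI at p under 0.05 and no gene of the list was higher. Of all probe sets, 6.82% reached that p, 1.87% with TBI lower and 4.96% with TBI higher. The log2 fold change was negative for 5 of the 7 genes (Nmb, Grm8, Sv2c, Calcrl and Glp1r) and positive for Drd2 and Cartpt, whereas 42.8% of all probe sets had a negative value. The median over the 7 genes was -0.12 and over all probe sets 0.011. In none of the 7 genes did the TBI and control values separate completely, which they did in 0.207% of all probe sets with TBI lower and 0.832% with TBI higher. In the 8 rats without those that stood apart, 5 of the 7 were again negative, with a median of -0.13, and 0 of the 7 passed after adjustment, where 1.51% of all probe sets did. In that fit 48.1% of all probe sets were negative and 10.4% were lower at an unadjusted p under 0.05, so 2 of 7 at that p stood against a higher background.

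**Figure D1:**
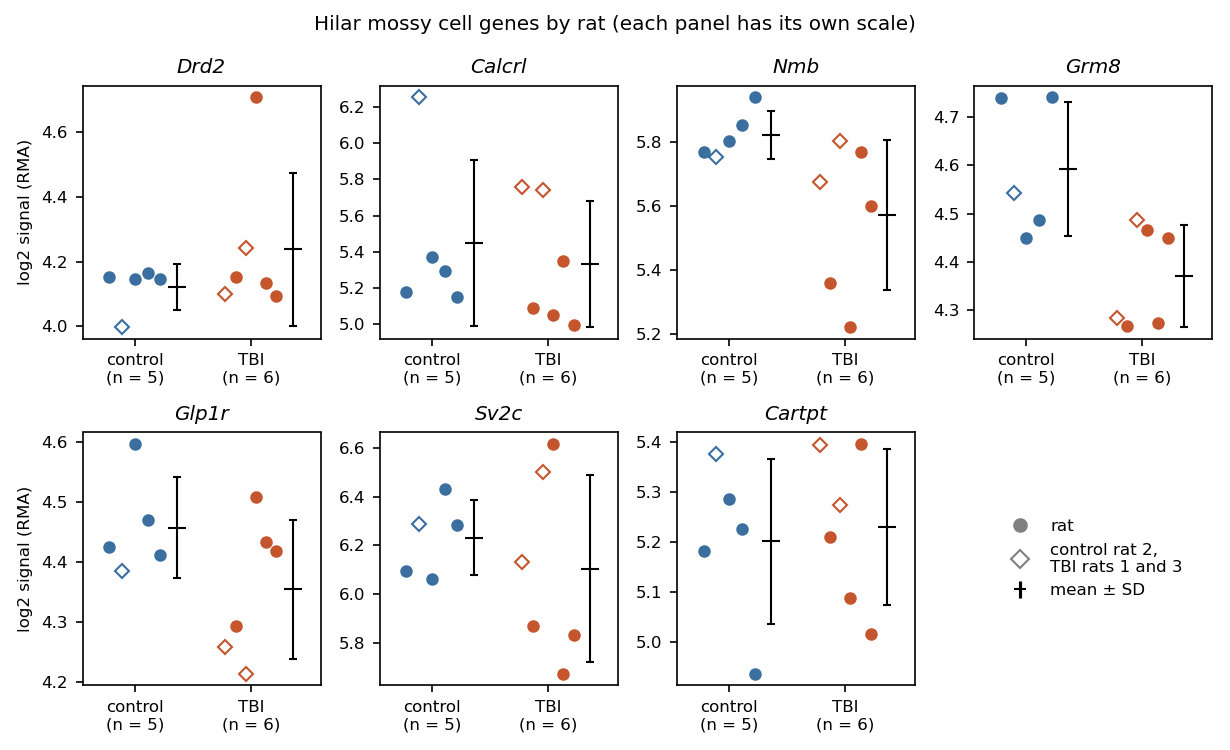
Log2 signal of the 7 measured mossy cell genes in each rat, with controls (n = 5) and TBI rats (n = 6) side by side and the mean ± SD beside each group. Open diamonds are control rat 2 and TBI rats 1 and 3, and the groups overlap in every panel, with 4 TBI rats below every control for Nmb and 3 for Grm8.

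Nmb encodes neuromedin B, a bombesin-like peptide that acts on its own G protein-coupled receptor. Its signals in control rats 1 to 5 were 5.77, 5.75, 5.80, 5.85 and 5.94. In TBI rats 1 to 6 they were 5.68, 5.36, 5.81, 5.22, 5.77 and 5.60. The controls lay close together, and 4 TBI rats were below all of them, with TBI rats 2 and 4 the lowest, while TBI rats 3 and 5 lay among the controls. Mean signals were 5.57 ± 0.23 in TBI rats (SD, n = 6) and 5.82 ± 0.075 in control rats (SD, n = 5). Nmb was thus at 0.840 times the control level, and the log2 fold change was -0.25 (standard error 0.099, 95% confidence interval -0.47 to -0.035). The unadjusted p was 0.026 and the adjusted p was 0.63 in limma, and an exact two-sided permutation test over all splits of the rats gave p = 0.043. Without the 3 rats that stood apart it was -0.35 (standard error 0.11, adjusted p = 0.11). The unadjusted p rose above 0.05 when control rat 4, control rat 5 or TBI rat 2 was left out (0.050, 0.064 and 0.059).

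The receptor of neuromedin B, Nmbr, was in the list of partners and relatives of the genes described here and moved the same way. Its signals in control rats 1 to 5 were 5.75, 5.67, 5.67, 5.74 and 5.81, and in TBI rats 1 to 6 they were 5.62, 5.48, 5.62, 5.39, 5.41 and 5.19. All 6 TBI rats were below all controls, as in 0.207% of all probe sets, and the lowest was TBI rat 6. Between the groups Nmbr differed by -0.28 on the log2 scale (standard error 0.073), with an unadjusted p of 0.0027 and an adjusted p of 0.28 in limma, and the exact permutation test gave p = 0.011. Nmbr passed the test in 2 of 21 alternatives, without the 3 rats that stood apart (log2 fold change -0.38, adjusted p = 0.026) and with arrays weighted by their quality (adjusted p = 0.012). Those settings called 271 and 310 probe sets, against 27 in the analysis of all rats with equal weights. In the other alternatives Nmbr did not pass, with adjusted p-values from 0.16 to 0.999, the highest with the replicate number as a block. TBI rats 1 and 3 were the highest of the TBI rats for Nmbr, and for Nmb they were the third highest and the highest.

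**Figure D2:**
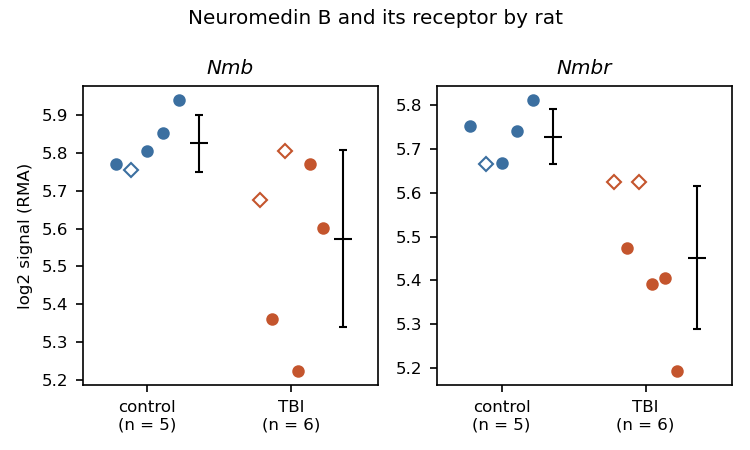
Log2 signal of Nmb and of its receptor gene Nmbr in each control (n = 5) and TBI rat (n = 6), with the mean ± SD beside each group and open diamonds for control rat 2 and TBI rats 1 and 3. For Nmb 4 of the 6 TBI rats lie below all controls, and for Nmbr all 6 do.

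Grm8 encodes mGluR8, a presynaptic metabotropic glutamate receptor that couples to inhibitory G proteins. It had the lowest p of the mossy cell genes. In control rats 1 to 5 the signals were 4.74, 4.54, 4.45, 4.49 and 4.74, and in TBI rats 1 to 6 they were 4.28, 4.27, 4.49, 4.47, 4.27 and 4.45. TBI rats 1, 2 and 5 were below every control, and all 6 TBI rats were below the control median of 4.54. The upper TBI rats and the lower controls overlapped within a narrow range. Mean signals were 4.37 ± 0.11 in TBI rats (SD, n = 6) and 4.59 ± 0.14 in control rats (SD, n = 5). This gave a log2 fold change of -0.22, with a standard error of 0.070 and a 95% confidence interval from -0.37 to -0.069. In limma the unadjusted p was 0.0082 and the adjusted p was 0.45, and the exact permutation test gave p = 0.017. Leaving out 1 rat at a time gave values from -0.26 to -0.18, with unadjusted p-values from 0.0044 to 0.025, and without the 3 rats that stood apart the value was -0.24 (adjusted p = 0.15). The mean signal of Grm8 over all rats was 1.42 above the background. At 4.47 it was below the median signal of every array (5.26 to 5.35), as were the means of Glp1r (4.40) and Drd2 (4.19). How well such low signals measure these genes was not tested. The other group III receptors measured, Grm4 and Grm7, and the group II receptors Grm2 and Grm3 had log2 fold changes from -0.044 to 0.042.

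Drd2, the inhibitory dopamine D2 receptor, is often used to reach mossy cells in mice. Its signals were the lowest of the list relative to the background, with a mean only 1.13 above it. In control rats 1 to 5 they were 4.15, 4.00, 4.15, 4.17 and 4.15, and in TBI rats 1 to 6 they were 4.10, 4.15, 4.24, 4.71, 4.14 and 4.09. All rats but one lay between 4.00 and 4.24, and TBI rat 4 stood far above them. Drd2 differed by 0.12 on the log2 scale, with a standard error of 0.0996, an adjusted p of 0.89 in limma and an exact permutation p of 0.40, and by 0.023 without TBI rat 4. TBI rat 4 also had the highest Sv2c of all rats and the lowest Nmb. The dopamine receptor genes Drd1, Drd3, Drd4 and Drd5 had log2 fold changes from -0.027 to 0.055, with unadjusted p-values of 0.35 or more in limma.

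Calcrl encodes the calcitonin receptor-like receptor, which forms the receptor for calcitonin gene-related peptide with RAMP1 and receptors for adrenomedullin with RAMP2 or RAMP3. Its signals in control rats 1 to 5 were 5.18, 6.25, 5.37, 5.30 and 5.15, and in TBI rats 1 to 6 they were 5.76, 5.09, 5.74, 5.05, 5.35 and 5.00. The 3 highest rats were control rat 2 and TBI rats 1 and 3, the rats that stood apart over all genes, and the others lay between 5.00 and 5.37. Calcrl differed by -0.12 on the log2 scale, with a standard error of 0.21, an adjusted p of 0.95 in limma and an exact permutation p of 0.66. Without control rat 2 it was 0.083, and without all 3 rats it was -0.13 (standard error 0.080, adjusted p = 0.42), with 3 TBI rats below every control. The 95% confidence interval over all rats, from -0.58 to 0.35, was the widest of the list. Ramp1 had a log2 fold change of 0.050, Ramp2 of 0.070 and Ramp3 of -0.018 (adjusted p-values of 0.95, 0.84 and 0.98 in limma), and Ramp3 was positive with arrays weighted by their quality.

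Calcrl is also made by endothelial cells, whose markers were counted for that reason. All 7 measured endothelial genes had positive log2 fold changes, with a median of 0.11, where 42.8% of all probe sets had a negative value. At an unadjusted p under 0.05, 2 of them, Cldn5 and Cdh5, were higher, as were 4.96% of all probe sets. None of the 7 passed after adjustment. Their mean signal lay between 6.07 and 6.12 in the TBI rats and between 5.93 and 6.07 in the controls. Control rat 2, with the highest Calcrl of all rats, had the highest endothelial mean of the controls, at 6.07. The highest endothelial means of all were in TBI rats 4 and 6, at 6.12 and 6.10, and these had the lowest Calcrl signals, at 5.05 and 5.00, while TBI rats 1 and 3, high in Calcrl, were at 6.09 and 6.08. Whether endothelial RNA had a part in the Calcrl signal was not tested.

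Glp1r encodes the receptor for glucagon-like peptide 1, which stimulates adenylyl cyclase. Its signals ranged from 4.39 to 4.60 in controls, with a median of 4.43, and from 4.21 to 4.51 after TBI, with a median of 4.36. TBI rats 1, 2 and 3 were below every control, and the other 3 TBI rats lay within the control range. Glp1r differed by -0.10 on the log2 scale, with a standard error of 0.060, an adjusted p of 0.83 in limma and an exact permutation p of 0.13. Without the 3 rats that stood apart the difference was -0.062 (adjusted p = 0.60). It was -0.13 under a second quantile normalization (unadjusted p = 0.046, adjusted p = 0.77 in limma). Without TBI rat 4 it was also -0.13 (unadjusted p = 0.040, adjusted p = 0.89 in limma). Gcg, the precursor of the peptide, had a log2 fold change of 0.024, and Gipr, the receptor of a related gut hormone, one of -0.00089.

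Sv2c, a membrane glycoprotein of synaptic vesicles, spread more widely after TBI than in controls. In control rats 1 to 5 the signals were 6.10, 6.29, 6.06, 6.43 and 6.28, and in TBI rats 1 to 6 they were 6.13, 5.87, 6.50, 6.62, 5.67 and 5.83. TBI rats 3 and 4 were above every control, and TBI rats 2, 5 and 6 were below every control. The SD was 0.38 after TBI and 0.15 in controls, and the equality of the spreads was not tested. Sv2c differed by -0.13 on the log2 scale, with a standard error of 0.16, an adjusted p of 0.93 in limma and an exact permutation p of 0.50, and by values from -0.23 to -0.041 when 1 rat was left out and -0.29 with arrays weighted by their quality. The related vesicle proteins Sv2a and Sv2b had log2 fold changes of -0.060 and -0.15, with unadjusted p-values of 0.14 and 0.27.

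Cartpt, the precursor of the CART neuropeptides, marks mossy cells in the human hilus. Which cells made it in these rats was not measured. Its signals ranged from 4.94 to 5.38 in controls, with a median of 5.23, and from 5.02 to 5.40 after TBI, with a median of 5.24. The groups overlapped almost entirely. Cartpt differed by 0.028 on the log2 scale, with a 95% confidence interval from -0.17 to 0.22, an adjusted p of 0.97 in limma and an exact permutation p of 0.78. The sign changed under a second quantile normalization and without control rat 5, TBI rat 1 or TBI rat 5, where the value lay between -0.038 and -0.0038.

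**Figure D3:**
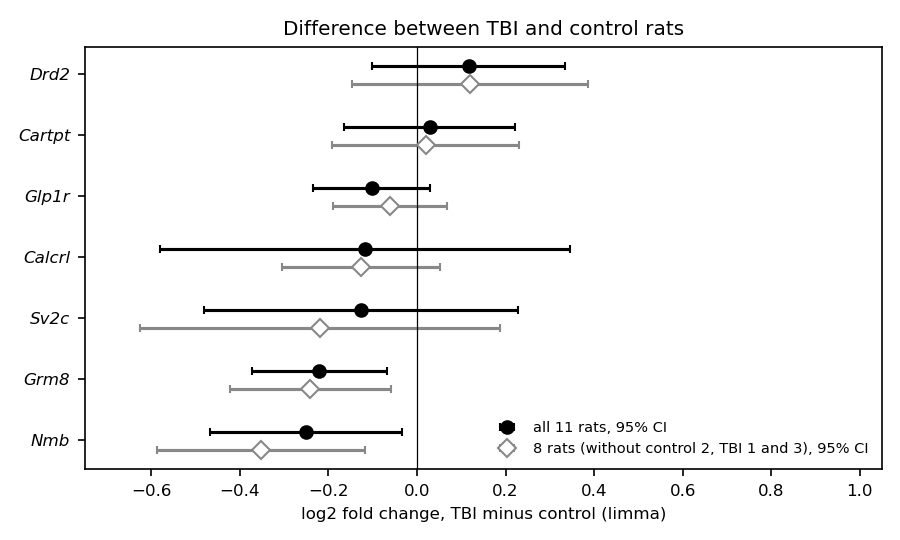
Log2 fold change (TBI minus control, from limma) of the 7 measured mossy cell genes with its 95% confidence interval, over all 11 rats (filled circles) and over the 8 rats without control rat 2 and TBI rats 1 and 3 (open diamonds). The intervals of Nmb and Grm8 lie below 0 before adjustment, at -0.25 and -0.22 over all rats, and those of the other 5 genes include 0.

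Of the 23 partners and relatives of these genes (ligands, receptors, accessory proteins and close paralogs), 0 passed after adjustment. At an unadjusted p under 0.05 only Nmbr was lower and none was higher, where 1.87% of all probe sets were lower and 4.96% higher. The median of this list was -0.00089, with 11 positive and 12 negative values. Of 6 further genes linked to mossy cells, none passed after adjustment, 4 had positive values, and the median was 0.047, opposite in sign to the median of -0.12 of the 7 mossy cell genes described above. Calb2, the calcium-binding protein calretinin, which marks mossy cells in mice and interneurons in rats, differed by -0.074 on the log2 scale (adjusted p = 0.87 in limma). Csf2rb, a cytokine receptor subunit that microglia also make, differed by 0.15 (unadjusted p = 0.031, adjusted p = 0.65), the only one of the 6 at an unadjusted p under 0.05.

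Markers of the neighbouring cell types were read beside the mossy cell genes. Among all probe sets, 42.8% had a negative value and 1.87% were lower at an unadjusted p under 0.05. Of 8 hilar interneuron genes, 7 had negative values, with a median of -0.25, and 4 were lower at an unadjusted p under 0.05. These were Pvalb, the only one that passed after adjustment, Sst, Npy and Cck, with log2 fold changes of -0.60, -0.58, -0.31 and -0.19. The mean of the interneuron list lay between 6.93 and 7.21 after TBI and between 7.29 and 7.40 in controls, so every TBI rat was below every control. The mean of the 7 mossy cell genes lay between 4.89 and 5.18 after TBI and between 5.08 and 5.23 in controls, so the groups overlapped. Of 10 granule cell genes, none passed the unadjusted threshold in either direction, and the median was 0.018. The 8 measured pyramidal cell genes of CA1 to CA3 had a median of 0.014, with none past the unadjusted threshold, and their mean was highest in control rat 1 and TBI rat 4, at 6.86 in both. The difference between the lists was not tested, nor was the part that the lower signals of the mossy cell genes had in it.

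**Figure D4:**
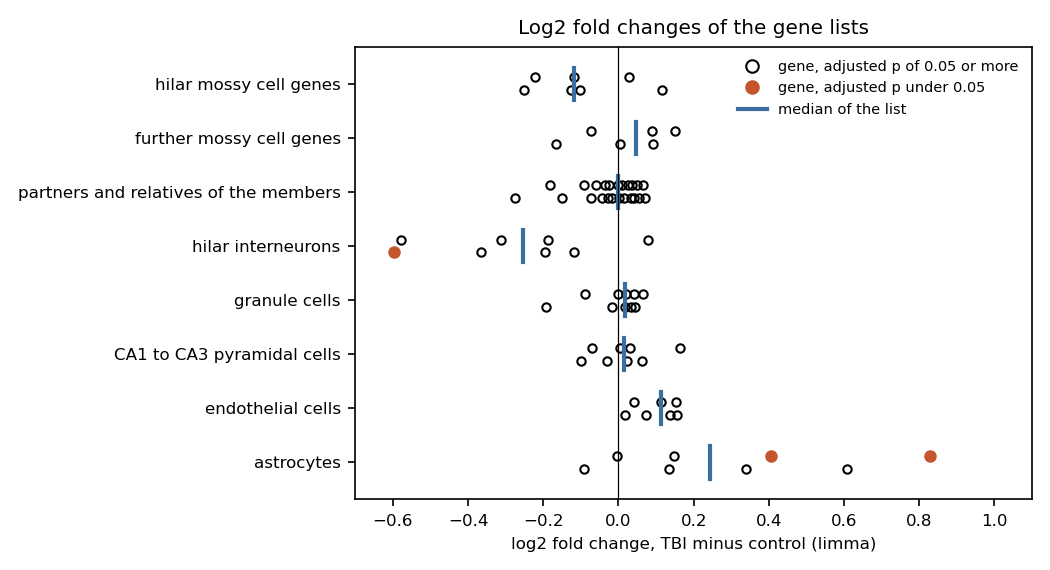
Log2 fold change (TBI minus control, from limma) of each measured gene in 8 gene lists, with filled points for genes with an adjusted p under 0.05 and a vertical bar at the median of each list. The mossy cell genes have a median of -0.12 with none past the threshold. The hilar interneuron genes, which have higher signals, have a median of -0.25, and the granule cell genes one of 0.018.

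Of the remaining lists, astrocyte genes had a median of 0.24. Among the 8 measured, 2 rose at an adjusted p under 0.05, where 0.14% of all probe sets did. These were Gfap and Cd44, with log2 fold changes of 0.83 and 0.41. The call of Cd44 was lost whichever rat was left out. The mean of the astrocyte list lay between 9.01 and 9.16 after TBI and between 8.66 and 9.03 in controls, and that of 8 microglia genes between 6.49 and 6.81 and between 6.20 and 6.80. No gene of the microglia, oligodendrocyte, choroid plexus, or striatum and thalamus lists passed after adjustment. The microglia list held 1 gene higher and 1 lower at an unadjusted p under 0.05 (Cd68 and Aif1). The striatum and thalamus list held 2 higher and 1 lower (Ppp1r1b, Lef1 and Penk). Among all probe sets, 4.96% were higher and 1.87% lower at that p. The part that a larger share of glial RNA had in the mossy cell signals was not tested.

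The 7 mossy cell genes did not vary as a group between rats. With group means removed, 9 of their 21 pairwise Pearson correlations were positive and 12 negative, and after Benjamini-Hochberg adjustment over the 21 pairs none passed on Pearson's r (lowest adjusted p = 0.24, exact permutation within groups). On ranks 1 pair passed, Calcrl and Cartpt, with a Spearman's rho of 0.95 (exact permutation p = 3.0e-04, adjusted p = 0.0063) and a Pearson's r of 0.73 (exact permutation p = 0.027, adjusted p = 0.24). Leaving out the 2 rats most distant from the Calcrl median gave an r of 0.62. Within the 8 rats left after removing those that stood apart, r was 0.90 (exact permutation p = 0.0017, adjusted p = 0.036) and rho was 0.95 (exact permutation p = 0.0035, adjusted p = 0.073). Drd2 and Sv2c had an r of 0.68 (exact permutation p = 0.030, adjusted p = 0.24), which was 0.32 once the 2 rats most distant from the Drd2 median were left out. In the 8 rats this pair had an r of 0.91 (exact permutation p = 0.080, adjusted p = 0.42) and a rho of 0.90 (exact permutation p = 0.024, adjusted p = 0.26), and TBI rat 4, the highest in both genes, was among these rats. Grm8 and Cartpt ran opposite to each other, with an r of -0.68 (exact permutation p = 0.034, adjusted p = 0.24), and of -0.78 in the 8 rats (exact permutation p = 0.026, adjusted p = 0.18).

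**Figure D5:**
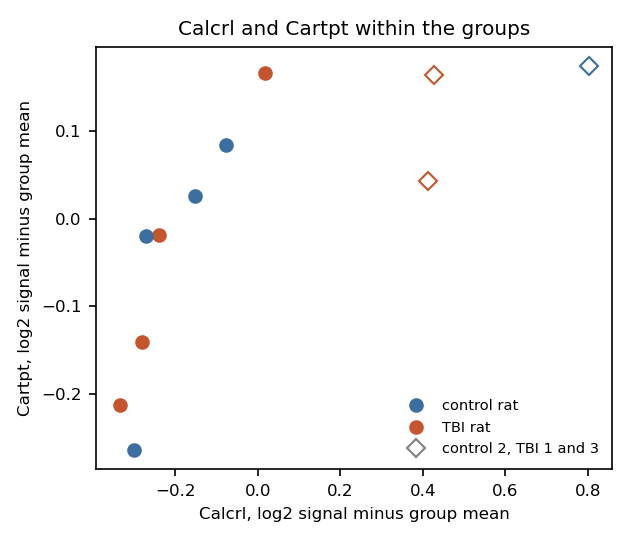
Signals of Calcrl (horizontal axis) and Cartpt (vertical axis) in each rat, in log2 units after subtraction of the group mean, with open diamonds for control rat 2 and TBI rats 1 and 3. The rats rise together on both axes, with a Spearman's rho of 0.95 over the 11 rats, and the 3 open diamonds lie to the right of the other rats.

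Among all 16572 genes, those that followed each mossy cell gene most closely within the groups were picked by the highest Pearson's r over the 11 rats, which is given without a p since it is the highest of so many. Nmb was followed by Mrpl32, Sowahb and Obi1, with r from 0.91 to 0.94, and Grm8 by Itga8, Rhbdf1 and FAM187A, with r of 0.90 for each. Calcrl was followed by Syncrip, Mrnip and Ndufa9, with r from 0.97 to 0.98. Drd2 was followed by Cfap126, Nxph2 and Cacna2d2, with r from 0.96 to 0.97, and Sv2c by Fgf12, Ghsr and Cr2, with r from 0.89 to 0.93. Glp1r was followed by Smpdl3b, 1700129C05Rikl and Tinagl1, with r from 0.91 to 0.93, and Cartpt by Septin2, Heatr5a and Sdhc, with r from 0.89 to 0.90. No mossy cell gene was among the 3 closest of another. Drd2 was far higher in TBI rat 4 (4.71) than in the other rats, and Calcrl was highest in the 3 rats that stood apart. How far these single rats set the r values was not tested.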

How the data were processed

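Total RNA from the left dentate gyrus of 6 TBI and 5 control rats was hybridized to Affymetrix Rat Gene 1.1 ST arrays. The authors deposited log2 values for 29214 probe sets, normalized with the Robust Multi-array Average (RMA) algorithm in oligo (version 1.30.0 in the submitters' processing notes, an earlier version in the methods). RMA makes the arrays alike, so a change shared by most genes cannot be judged. The arrays were not fully equal, with medians from 5.26 to 5.35. Centring them on their medians shifted the median log2 fold change by -0.021. The number of arrays limits the precision. Array scan dates were not given in the sources used here, so batches were not tested.

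The methods set the background at the median intensity of the antigenomic probes, which was not used here. In its place 3.06 was set as the floor, the lowest value in the readable rows of the study's supplementary table of these arrays, so the genes kept need not be those the study kept. Lower values were raised to this floor. Probe sets that did not exceed the floor in over 5 arrays, and those with several gene symbols (962) or none (9608), were left out. For the other 17905, groups were compared by lmFit and eBayes of limma 3.58.1 under R 4.3.3 (two-sided), and p-values were adjusted by Benjamini-Hochberg across these probe sets, with 0.05 as the limit. Each gene was represented by its probe set with the highest mean. Single genes were also tested by exact permutation over all splits of the rats, and pairs by exact permutation within groups (86400), using SciPy 1.17.1 and NumPy 2.4.6 under Python 3.11.15. Simulated data were used to test the steps, and matplotlib 3.10.9 drew the plots.

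The mossy cell genes and the 11 other lists were chosen with earlier results of these data known. Genes named outside the mossy cell list were up to 4 of each list with the lowest p, and Calb2, Ramp1, Ramp2, Ramp3, Nmbr, Gfap and Prox1. Genes given only as a range or beside a relative (Grm2, Grm3, Grm4, Grm7, the dopamine receptors, Gcg, Gipr and Sv2b) were added after their values were seen. The alternatives changed the filter (none, or only probe sets averaging 5 or more), the scaling (centring on medians, or quantile normalization again), the limma fit (trend and robust prior, quality weights, or rats blocked by number), the test (the methods' one-way analysis of variance), the probe set of a gene (the mean of all), and the rats (each left out in turn, or the 3 that stood apart together).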

Additional observations from a re-analysis of the deposited data

Results flagged for a closer look

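In 5 of the 40 groups of values examined, 1 rat lay far from the rest of its group, where chance gives about 1 in 20. Drd2 was high in TBI rat 4, at 4.71 against 4.09 to 4.24 in the other TBI rats, and low in control rat 2, at 4.00 against 4.15 to 4.17 in the other controls. Calcrl was high in control rat 2, at 6.25 against 5.15 to 5.37. Calb2 was low in TBI rat 1, at 3.88 against 4.01 to 4.09, and Cd44 was low in control rat 1, at 4.18 against 4.44 to 4.53.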

How the results depend on the processing

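None of the mossy cell genes passed the adjusted threshold in limma or in any of the alternatives, the analysis of variance included, and Nmb, Grm8, Glp1r, Sv2c and Drd2 kept their direction wherever they were tested. The number negative was 3 of 4 where a mean log2 value of at least 5 was required, since Drd2, Grm8 and Glp1r were then left out, and the number at an unadjusted p under 0.05 was 1 there and between 1 and 3 when 1 rat was left out. Of all probe sets, 27 passed in the analysis reported, 9 with median-centred arrays, 11 with a second quantile normalization, 8 in the analysis of variance, 310 with array weights, 271 without the 3 rats that stood apart, and between 5 and 34 when 1 rat was left out. The cause was not tested. Cartpt turned to -0.0038 under the second quantile normalization and ranged from -0.038 to 0.072 when 1 rat was left out, Calcrl from -0.20 to 0.083 and Ramp3 from -0.054 to 0.041. With array weights Ramp3 was 0.071 and Prox1 -0.028, and Prox1 was -0.0087 without the 3 rats. Same-numbered rats did not deviate together (correlations from -0.65 to 0.11 over 5 pairs, 0 of the 5 TBI rats closest to their own number). No pairing by number was thus seen, but 5 pairs are too few to exclude one. When the replicate block was fitted, 3 probe sets passed.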
